A study of Mus musculus with 2 samples.

Results

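Chromatin accessibility at 28 genes of cholesterol synthesis and its control by sterol regulatory element binding proteins (SREBPs) was examined in the adrenal gland. The genes were listed by their known place in the pathway, and the list uses no measured value, although it was drawn up with earlier results of these data known. All 28 were found among the 21802 protein-coding genes of the annotation used, and 20 of the 28 encode enzymes of synthesis. The other 8, called control genes, encode SREBPs, proteins that govern them, and Mylip, which lowers lipoprotein uptake. The tissue came from 2 male B6CASTF1/J mice aged 25 days, F1 hybrids of the strains named B6 and CAST, with no treatment given in the labels. DNase-seq was performed on 1 library per animal. In this assay the nuclease DNase I cuts chromatin in isolated nuclei, and the sites it reaches easily, named DNase I hypersensitive sites (DHSs), include active promoters and enhancers. Both libraries form a single group, called replicate 1 and replicate 2, so no p-value could be computed and each value is given for the libraries in that order. The labels give each library its own number for the male and its own biological replicate number, but give both the same donor code.

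Cells make cholesterol from acetyl-CoA. The early enzymes build isoprenoid diphosphates by way of mevalonate, the middle enzymes join them into squalene and close its rings to form lanosterol, and the late enzymes trim lanosterol to cholesterol. When sterols run low in the endoplasmic reticulum, the escort protein Scap carries SREBPs to the Golgi, where successive proteases free a transcription factor that raises the genes of the pathway. When sterols are plentiful, Insig proteins hold Scap back. The adrenal cortex uses cholesterol as the starting material of all its steroid hormones and, in mice, also takes it up from lipoproteins.

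The longer deposited lists held 130945 DHSs in replicate 1 and 157786 in replicate 2, and the height of a DHS is the deposited peak signal, whose scale is not stated. Across the lists the median height was 1.01 and 0.720. The adrenal cortex markers Star, Cyp11a1, Cyp11b1, Nr5a1, Mc2r, Mrap and Scarb1 all had a promoter DHS in both libraries, 7 of 7, with heights from 0.458 to 13.3 in replicate 1 and from 0.666 to 7.56 in replicate 2. The chromaffin cell markers Th, Dbh and Chga also had one in both libraries. Of the 4 liver markers, 0 and 1 had a promoter DHS, and Alb, Apoa1 and Ttr had none in either library. Of the 3 kidney markers 1 and 0 had one, and of the 3 adipocyte markers 2 and 3 had one. In whole tissue, fewer cells of a type and less accessibility per cell cannot be told apart.

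All 28 genes had a promoter DHS in both animals, that is, a DHS within 1 kb of a protein-coding start. Over all protein-coding genes the share was 65.8%, and over those whose promoter was rich in CpG dinucleotides (a ratio of observed to expected CpG of at least 0.6) it was 96.1%. Of the 25 members with a RefSeq promoter sequence, 20 were CpG-rich, which is 80%, against 52.5% of 16498 genes. All 20 CpG-rich members were open, a share near that of CpG-rich genes in general, and the 5 members below the limit and the 3 without a sequence were open too. The strongest promoter DHS of the 28 genes had a median height of 16.9 in replicate 1 and 13.03 in replicate 2, against 8.85 and 6.25 over all genes with a promoter DHS. In all, 25 of 28 members lay above the median open promoter in both libraries, against 48.3% of all genes open in both. The exceptions were Nsdhl, Ebp and Mbtps2, the 3 members on chromosome X. Heights were not set beside those of CpG-rich genes alone, so the part of CpG content in the greater heights of the members was not tested.

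**Figure D1:**
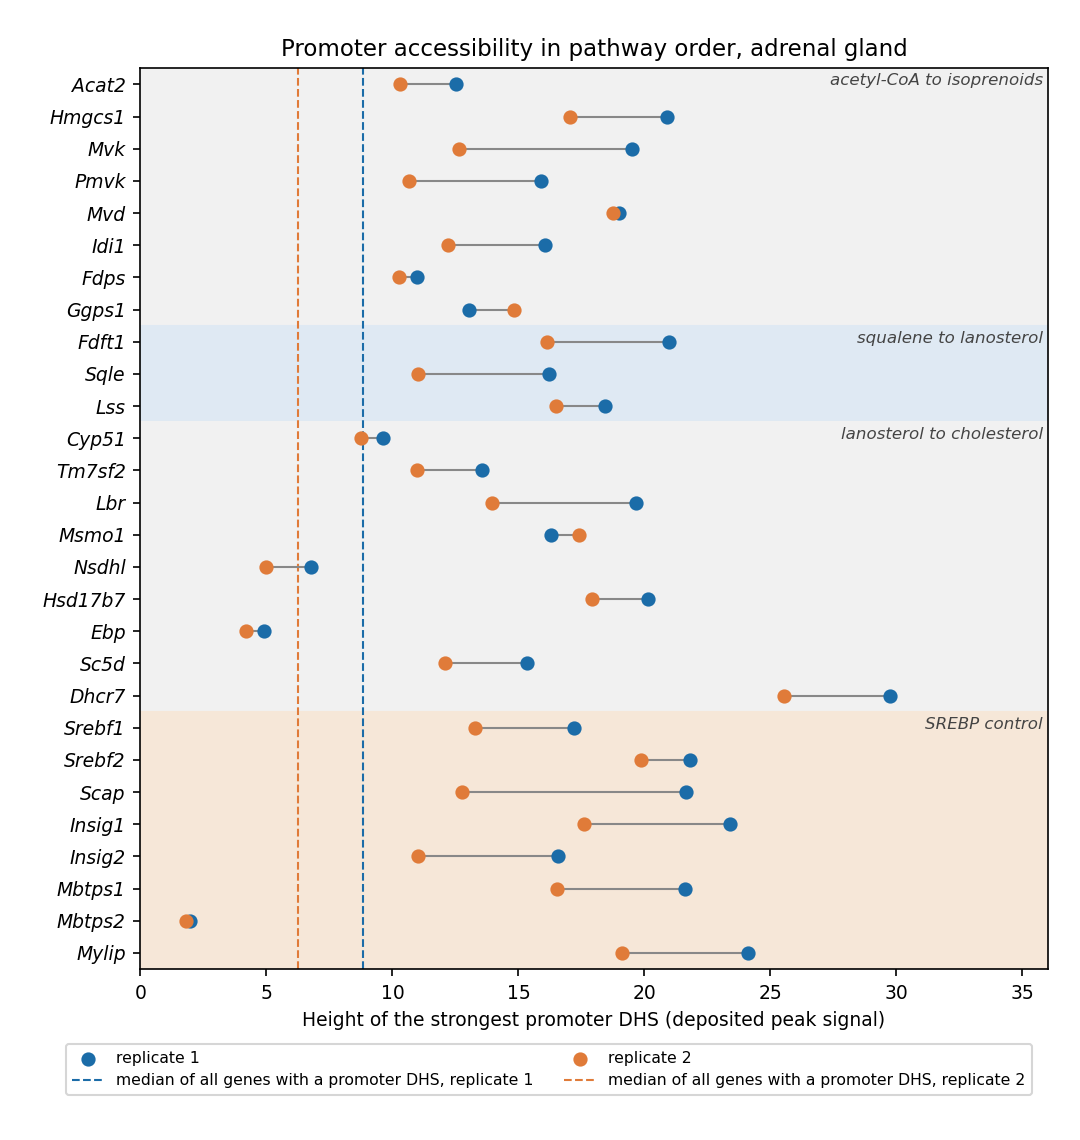
Height of the strongest promoter DHS (deposited peak signal, x axis) for each of the 28 genes in pathway order, with 1 point per library and a line joining them; dashed lines mark the medians of all genes with a promoter DHS, 8.85 in replicate 1 and 6.25 in replicate 2. Dhcr7 is the highest in both libraries and Mbtps2 the lowest, and Nsdhl, Ebp and Mbtps2 alone lie left of the dashed line of their library.

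**Figure D2:**
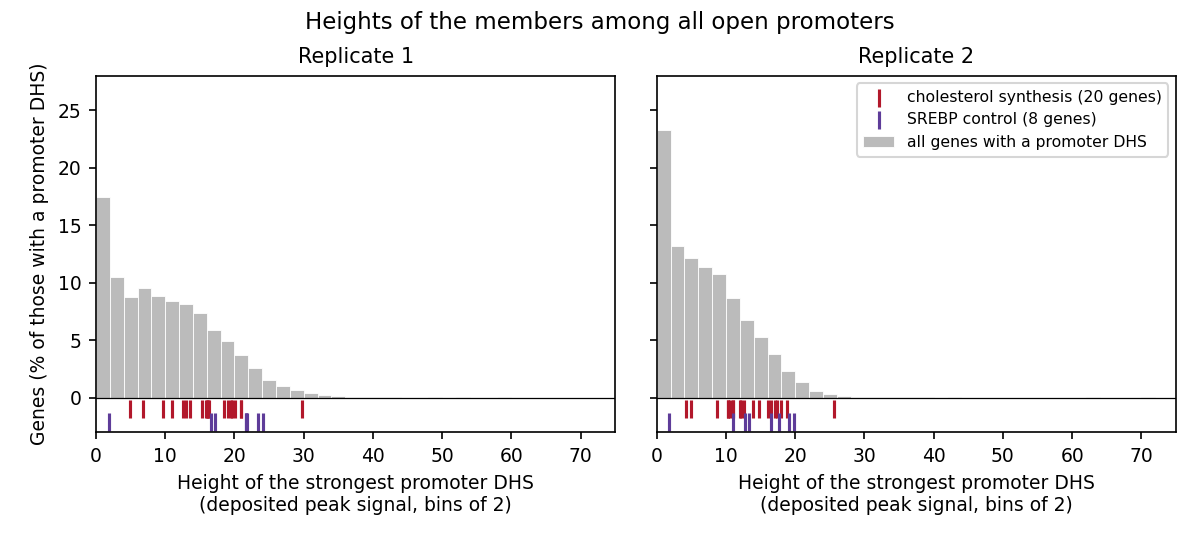
Ticks below the axis mark the promoter DHS heights of the 20 synthesis genes and the 8 control genes, and bars show the share of all genes with a promoter DHS in height bins of 2 (deposited peak signal), 1 panel per library. Most members sit on the right side of the distribution, between 9.64 and 29.7 in replicate 1 and between 8.77 and 25.6 in replicate 2 once the 3 genes of chromosome X are set aside.

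By rule the strongest promoter DHSs touched the 1 kb on either side of a start. Their median width was 220 bp in replicate 1 and 200 bp in replicate 2, and their centres lay a median of 100.5 bp and 75.5 bp from the nearest protein-coding start of the gene. The centre was upstream of that start for 23 and 25 of the 28 genes. Widths, distances and sides were not set beside those of other genes. The heights rested on 234 to 3569 steps of the deposited scale in replicate 1 and on 204 to 2877 in replicate 2, a step being the smallest difference between heights in a library. In both libraries the middle 36 bases of each member's strongest promoter DHS occurred at 1 place in the genome, so no member shared that stretch with a copy of itself.

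Promoter sequences were searched on both strands for the consensus of 6 motifs, counting 250 bases before to 50 after each RefSeq start. These were the sterol regulatory element (SRE) that SREBPs bind, written TCACNCCAC, the CCAAT box of the factor NF-Y, the GC box GGGCGG of Sp factors, the E-box CACGTG, the cyclic AMP response element TGACGTCA, and CAAGGTCA, the motif of steroidogenic factor 1 (SF-1). Sequences printed here are RefSeq promoters of GRCm38.p6, trimmed to the part outside annotated exons, with matches in capitals on whichever strand they lie. Sqle, Fdps and Fdft1 were not searched.

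The CCAAT box was present in the promoters of 21 of 25 members, or 84%, against 42.1% of all genes. Its share among members was 85% where only CpG-rich promoters were counted, against 41.9% of such genes, and 84% where only genes open in both libraries were counted, against 42.4%. A match counted at any start of a gene, and the CCAAT boxes of Pmvk and Insig2 lay outside the DHSs of both libraries. Counted per window, the shares were 66.7% of 33 member windows and 37.8% of 20121 windows of all genes. The GC box was present in 22 of 25 members, or 88%, against 51.0% of all genes, and in 90% of CpG-rich members against 77.0% of CpG-rich genes. The E-box was present in 5 members, Hsd17b7, Sc5d, Dhcr7, Scap and Insig1, or 20%, against 9.16% of all genes. It was present in 25% of CpG-rich members against 12.9% of CpG-rich genes. Among genes open in both libraries its shares were 20% in members and 11.5% in general. The E-box of Dhcr7 lay outside the DHSs of both libraries. The exact SRE consensus was present in 1 member, Hmgcs1, or 4%, against 1.42% of all genes, and with 1 mismatch allowed in 11 members, or 44%, against 27.3%. The SF-1 motif was present in 1 member, Dhcr7, against 1.47% of all genes, and the cyclic AMP response element in 0 members against 2.64%. The median GC content of these promoters was 64.7% in members and 57.7% in all genes. A match describes letters only, and binding was not measured.

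**Figure D3:**
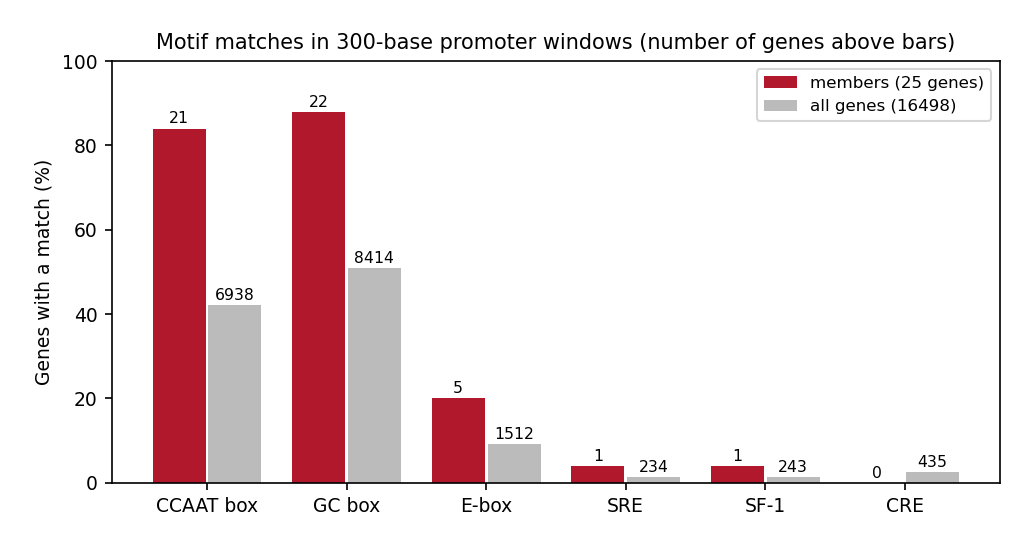
Share of genes (%, y axis) whose RefSeq promoter windows hold each motif, for the 25 members with a window (left bars) and for 16498 genes (right bars), with the number of genes above each bar. The largest gap between the bars is at the CCAAT box, 84% in members and 42.1% in all genes.

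The 8 genes from acetyl-CoA to isoprenoids had a median promoter height of 15.97 in replicate 1 and 12.4 in replicate 2. Acat2, which condenses acetyl-CoA to acetoacetyl-CoA, had 12.5 and 10.3. Its strongest DHS lay at 12960681 to 12960840 of chromosome 17 in replicate 1 and at 12960361 to 12960540 in replicate 2, sites that did not overlap. Hmgcs1, which adds the next acetyl unit, had 20.9 and 17.0 (19.0 ± 2.74, SD, n = 2), the highest mean of this stage. Mvk, which phosphorylates mevalonate, had 19.5 and 12.6, and the strongest DHS lay nearer to the start of Mmab, a cobalamin enzyme gene that shares this promoter, than to that of Mvk. Pmvk, which adds the next phosphate, had 15.9 and 10.6 at a start inside the gene, 4549 bp from its 5′ end, and the 5′ end itself had no promoter DHS. Mvd, which decarboxylates the product to isopentenyl diphosphate, had 19.0 and 18.7, a log2 ratio of 0.02, or -0.44 relative to the median of all genes.

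Idi1, which interconverts the isoprenoid building blocks, had 16.04 and 12.2, at a DHS centred 369 bp inside the gene over a coding exon. Fdps, the farnesyl diphosphate synthase gene, had 10.97 and 10.2, with a start of the predicted gene Gm43738 within 1 kb. Ggps1, which makes geranylgeranyl diphosphate for protein prenylation, had 13.05 and 14.8, higher in replicate 2, with the start of Arid4b, a chromatin protein gene, within 1 kb. The heights of this stage ran from 10.97 to 20.9 in replicate 1 and from 10.2 to 18.7 in replicate 2, so each of the 8 exceeded the median open promoter of its library.

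The Hmgcs1 promoter is shown because it carried the exact SRE among the members searched. The stretch is chr13:119690101-119690350 on the plus strand, just before the RefSeq start, and capitals mark 1 SRE, 3 CCAAT boxes and 2 GC boxes.
Hmgcs1: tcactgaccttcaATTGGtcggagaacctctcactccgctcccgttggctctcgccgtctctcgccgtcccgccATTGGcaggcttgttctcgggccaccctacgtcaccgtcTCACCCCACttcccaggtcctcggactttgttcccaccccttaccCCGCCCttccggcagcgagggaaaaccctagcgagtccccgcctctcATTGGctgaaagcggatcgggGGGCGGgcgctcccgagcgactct

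The SRE of Hmgcs1, at 119690214 to 119690222, lay inside the DHS of both libraries, at -137 relative to the RefSeq start. Deposited footprints, short stretches protected from cutting, covered 2 of its 9 bases in replicate 1 and 1 in replicate 2. Coverage of the other matches shown varied. The CCAAT box at 119690306 was covered over 0 bases in each library. Those at 119690114 and 119690175 were covered over 3 and 5 and over 5 and 3 of 5 bases. The GC boxes at 119690259 and 119690327 were covered over 6 and 5 and over 6 and 6 of 6 bases. In replicate 1 the GC box at 119690327 lay outside the DHS. The strongest Hmgcs1 DHS held 7 footprints in replicate 1 and 9 in replicate 2, against a median of 5 and 3 over the 28 genes.

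Among SRE matches with 1 mismatch, footprints covered 1 in Msmo1 and 1 in Mylip in both libraries. Capitals mark the bases aligned to the consensus, on the strand of the match, with 5 bases on each side, and positions of a mismatch count from 1 at the first base of the consensus.
Hmgcs1: ccgtcTCACCCCACttccc
Msmo1: accaaTCACTGCACggcga
Mylip: gggctTCAGCCCACcgaga
Srebf2: caccaTCACCCCATgagcc

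The Msmo1 site at chr8:64733662-64733670 differs from the consensus by C6G and was covered over 9 bases in replicate 1 and 7 in replicate 2. A CCAAT box at 64733670 to 64733674 overlaps the edge of this site and was covered over 5 bases in replicate 1 and 0 in replicate 2. The Mylip site at chr13:45389614-45389622 differs by C4G and was covered over 5 bases in each library. The Srebf2 site at chr15:82147107-82147115 differs by C9T, lay inside the DHS of both libraries and was covered over 0 bases in each. The 4 sites thus lay in open DNA in both animals, with protected stretches over those of Msmo1 and Mylip. They were picked from a longer set of matches, those of Msmo1 and Mylip for their coverage. The matches of Nsdhl, Dhcr7, Insig1 and Insig2, and another in Acat2, lay outside the DHSs of both libraries. Coverage of matches with 1 mismatch was not computed over all genes.

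The 3 genes from squalene to lanosterol had promoter heights with medians of 18.4 and 16.1. Fdft1, the squalene synthase gene, had 21.0 and 16.1, at a DHS centred 1487 bp (replicate 1) and 1577 bp (replicate 2) inside the gene, near its downstream start. Its 5′ end had no promoter DHS. Sqle, which adds oxygen to squalene, had 16.2 and 11.01 just upstream of the gene. Lss, which folds the epoxide into lanosterol, had 18.4 and 16.5, also just upstream of the gene, with 6 footprints in each library. All 3 were higher in replicate 1.

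The 9 genes from lanosterol to cholesterol covered the widest span of heights among the enzyme stages, 4.92 to 29.7 in replicate 1 and 4.18 to 25.6 in replicate 2, with medians of 15.3 and 12.1. Cyp51, the lanosterol demethylase gene, had 9.64 and 8.77, the lowest of the 18 autosomal enzyme genes in both libraries, and its strongest DHSs lay at different sites, centred 265 bp inside the gene in replicate 1 and 34 bp upstream in replicate 2. Tm7sf2 and Lbr encode enzymes able to perform the reduction that follows demethylation. Tm7sf2 had 13.6 and 10.99. Lbr, whose protein also anchors chromatin at the nuclear envelope, had 19.7 and 13.9. The lower of both Lbr heights thus lay above the higher of both Tm7sf2 heights.

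Msmo1, Nsdhl and Hsd17b7 encode the enzymes that remove the methyl groups at carbon 4 of the sterol ring. Msmo1 had 16.3 and 17.4, higher in replicate 2. Nsdhl, on chromosome X, had 6.77 and 5.00, at a DHS whose centre lay 9 and 19 bp from the start of Cetn2, a centrin gene transcribed from the same promoter region. Hsd17b7 had 20.1 and 17.9. In the Hsd17b7 promoter, footprints covered the CCAAT box at 169969274 over 5 of 5 bases in both libraries, the GC box at 169969334 over 6 of 6 in both, and the E-box at 169969343 over 6 and 5 of 6. Other matches of the same promoter were covered less, the CCAAT boxes at 169969213 over 0 and 1 bases and at 169969366 over 0 in each, and the GC boxes at 169969382 over 1 and 4 and at 169969427 over 0 in each. Ebp, the sterol isomerase gene on chromosome X, had 4.92 and 4.18, at a DHS centred 469 and 439 bp from its nearest start. Sc5d, a sterol desaturase gene, had 15.3 and 12.1.

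Dhcr7, which reduces the last precursor of the pathway to cholesterol, had the highest promoter DHS of all 28 genes, 29.7 in replicate 1 and 25.6 in replicate 2 (27.6 ± 2.96, SD, n = 2). Those heights exceeded 98.98% and 99.7% of all open promoters. The DHS lay at chr7:143822821-143823080 in replicate 1 and chr7:143822841-143823080 in replicate 2, nearer to the start of the divergent gene Nadsyn1, an NAD synthetase gene, 109 and 119 bp away, than to that of Dhcr7. A separate DHS at alternative starts about 7 kb into the gene had heights of 10.7 and 11.4. The stretch upstream of Dhcr7, chr7:143822917-143823144 on the plus strand, is shown because it carried the single SF-1 match among the members, and capitals mark 1 GC box and 1 SF-1 motif.
Dhcr7: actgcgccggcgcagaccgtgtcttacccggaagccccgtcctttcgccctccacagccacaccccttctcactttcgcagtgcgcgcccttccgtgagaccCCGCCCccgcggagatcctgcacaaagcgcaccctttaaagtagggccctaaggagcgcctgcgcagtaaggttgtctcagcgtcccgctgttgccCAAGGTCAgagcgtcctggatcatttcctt

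The GC box of that stretch, at 143823019, was covered by footprints over 6 of 6 bases in both libraries. The SF-1 match, at 143823115 to 143823122, lay outside the DHSs of both libraries and was covered over 0 bases in each.

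The 8 control genes had a median promoter height of 21.6 in replicate 1 and 14.9 in replicate 2, against 16.1 and 12.4 for the 20 synthesis genes. The ranges of both sets overlapped. Srebf2, whose product drives mainly the genes of cholesterol synthesis, had 21.8 and 19.9, centred 20 and 30 bp upstream of a start. Srebf1, whose product also drives genes of fatty acid synthesis and whose alternative promoters give different protein forms, had 17.2 and 13.3. Scap, the sterol-sensing escort, had 21.6 and 12.8, the largest gap between the animals among the 28 genes in deposited heights. Relative to the median log2 ratio of all genes, Scap lay at 0.30 and Ggps1 further away at -0.65. Insig1, itself raised by SREBPs, had 23.4 and 17.6, and Insig2, its relative, had 16.6 and 11.03 at a DHS 4778 and 4768 bp inside the gene, with no promoter DHS at its 5′ end. Mbtps1, the protease that makes the first cut in SREBPs, had 21.6 and 16.5. Mbtps2, the protease that makes the following cut, had 1.95 and 1.81, the lowest of all 28 genes. Mylip, a sterol-induced ubiquitin ligase that lowers lipoprotein uptake, had 24.1 and 19.1, the highest of the control genes in replicate 1, and Srebf2 was highest in replicate 2.

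The promoters of Insig1 and Mbtps2 are shown together because they stand near the top and at the bottom of the control genes. The Insig1 stretch is chr5:28071162-28071362 on the plus strand, with 3 GC boxes, 1 CCAAT box and 1 E-box in capitals and a GC content of 72.6%. The Mbtps2 stretch is chrX:157598716-157598965 on the minus strand, with no match to any of the 6 motifs and a GC content of 49.6%. The strongest Mbtps2 DHS, which lay only partly inside this stretch in replicate 1, had a GC content of 63.4% in replicate 1 and 31.7% in replicate 2.
Insig1: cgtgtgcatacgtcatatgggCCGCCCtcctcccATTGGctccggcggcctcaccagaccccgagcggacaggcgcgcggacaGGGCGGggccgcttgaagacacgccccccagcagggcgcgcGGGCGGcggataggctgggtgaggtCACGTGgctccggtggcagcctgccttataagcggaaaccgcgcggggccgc
Mbtps2: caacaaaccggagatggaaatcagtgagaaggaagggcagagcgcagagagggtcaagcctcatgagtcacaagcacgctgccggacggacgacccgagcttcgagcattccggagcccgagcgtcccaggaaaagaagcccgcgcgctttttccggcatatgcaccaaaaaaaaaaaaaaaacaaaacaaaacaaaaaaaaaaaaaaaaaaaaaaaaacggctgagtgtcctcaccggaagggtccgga

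Footprints covered the Insig1 GC boxes at 28071245 over 6 and 5 of 6 bases and at 28071286 over 6 of 6 in both libraries, whereas the GC box at 28071183 was covered over 1 and 0 bases and the CCAAT box and the E-box over 0 in each. The strongest Mbtps2 DHS was 620 bp wide in replicate 1 and 60 bp wide in replicate 2, the widest and the narrowest of the strongest promoter DHSs in those libraries, and held 5 and 2 footprints. In Srebf2, footprints covered the CCAAT box at 82147134 over 5 of 5 bases in both libraries and the GC boxes at 82147058 and 82147190 over 6 of 6 in both. Its other GC boxes were covered less, over 0 bases in each library at 82147217, over 6 and 2 at 82147235 and over 3 and 0 at 82147288. In replicate 2 the GC box at 82147288 lay outside the DHS.

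The 3 members on chromosome X had a median height of 4.92 in replicate 1 and 4.18 in replicate 2, against 18.4 and 13.9 for the 25 autosomal members. All genes of chromosome X with a promoter DHS had medians of 3.79 and 2.82, against 9.17 and 6.47 for all autosomal genes. The cells of male mice hold a single copy of chromosome X and paired autosomes. The part of copy number in the low heights of Nsdhl, Ebp and Mbtps2 was not tested.

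The Srebf1 locus held the strongest set of sites. The DHSs assigned to it, those whose nearest protein-coding start within 100 kb belonged to Srebf1, numbered 10 in replicate 1 and 18 in replicate 2, with summed heights of 67.1 and 48.2, the highest of the 28 genes in both libraries. The strongest lay 12070 and 12080 bp inside the gene at 60210421 to 60210600 (replicate 1) and 60210401 to 60210600 (replicate 2) of chromosome 11, on an internal start. A DHS at the start nearer to the 5′ end had 11.2 and 8.97, and an adjacent one had 9.28 and 6.87. A further DHS at -329 and -319 bp from the annotated 5′ end, where no protein-coding start is annotated, had 7.68 and 5.30. A DHS over a UTR exon near the end of the gene, 22760 and 22740 bp from the 5′ end, had 9.27 and 2.58, a wider gap between the animals than at the starts. The Srebf1 DHSs found in replicate 2 alone, all upstream of the gene, were weak, with heights from 0.142 to 0.773. Those found in replicate 1 alone had 0.892 and 0.758.

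**Figure D4:**
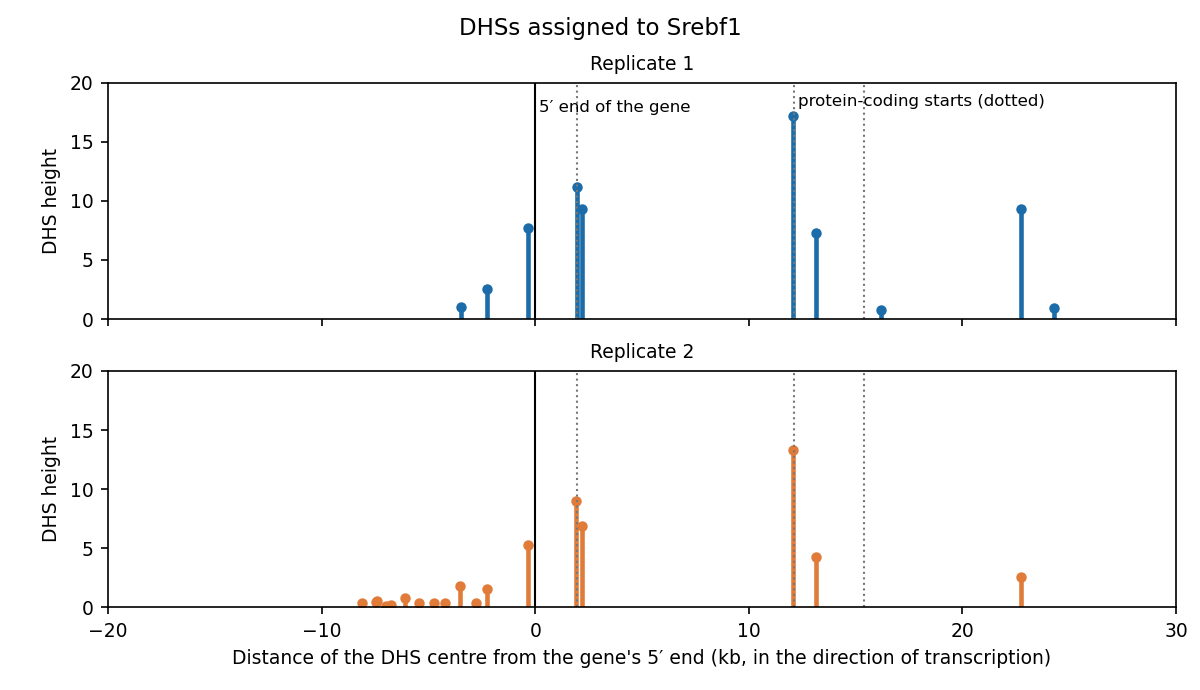
Height of each DHS assigned to Srebf1 (y axis, deposited peak signal) against the distance of its centre from the 5′ end of the gene in the direction of transcription (x axis, kb), 1 panel per library, with protein-coding starts as dotted lines. The tallest DHS in both libraries stands at the internal start about 12 kb into the gene, with 17.2 in replicate 1 and 13.3 in replicate 2.

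Of the 3 protein-coding starts of Srebf1, the promoters of those under the stronger DHSs are shown. The remaining start had a DHS of 0.758 in replicate 1 and none in replicate 2. The internal one is chr11:60210472-60210721 and the one nearer to the 5′ end is chr11:60220628-60220877, both on the minus strand. Capitals mark 2 GC boxes and 1 CCAAT box at the internal start and 2 GC boxes at the other.
Srebf1 internal start: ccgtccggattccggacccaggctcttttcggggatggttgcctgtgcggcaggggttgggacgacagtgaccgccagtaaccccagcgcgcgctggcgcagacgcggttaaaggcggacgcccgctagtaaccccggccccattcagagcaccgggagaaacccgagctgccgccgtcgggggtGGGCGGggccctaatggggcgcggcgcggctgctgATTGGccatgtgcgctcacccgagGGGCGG
Srebf1 start nearer to the 5′ end: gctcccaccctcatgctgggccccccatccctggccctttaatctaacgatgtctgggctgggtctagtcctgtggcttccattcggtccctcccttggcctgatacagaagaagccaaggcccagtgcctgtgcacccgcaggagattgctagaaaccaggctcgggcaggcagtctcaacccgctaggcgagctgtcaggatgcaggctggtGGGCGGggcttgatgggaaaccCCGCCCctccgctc

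Footprints covered the GC boxes of the internal start over 6 and 6 of 6 bases at 60210472 and over 5 and 6 at 60210531, and its CCAAT box over 0 in both libraries. At the other start, the GC boxes at 60220636 and 60220658 were covered over 6 of 6 bases in both libraries. No exact SRE was found in either stretch, which says only that these letters are absent from these bases.

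By median the members had more summed height than genes in general, most of it at their starts, and the control genes also had more sites. A member had a median of 6 assigned DHSs in replicate 1 and 5.5 in replicate 2, against 3 and 4 over all protein-coding genes. The latter include genes without a promoter DHS, and 9.09% of them had no assigned DHS in either library. The median summed height was 25.9 and 21.4, against 9.97 and 7.15. For the control genes the medians were 7 and 9 DHSs and 29.4 and 24.7 in summed height. For the synthesis genes they were 3.5 and 4 DHSs, near those of all genes, and 25.2 and 20.9 in summed height. DHSs away from any protein-coding start held a median of 16.4% and 20.2% of a member's summed height. In replicate 1, 7 members had no such distal DHS, and in replicate 2, 5 had none. These shares and counts were not computed over all genes, so members and other genes were not compared in them. Nsdhl had 0 assigned DHSs in either library, because its promoter DHS lay nearer to Cetn2.

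**Figure D5:**
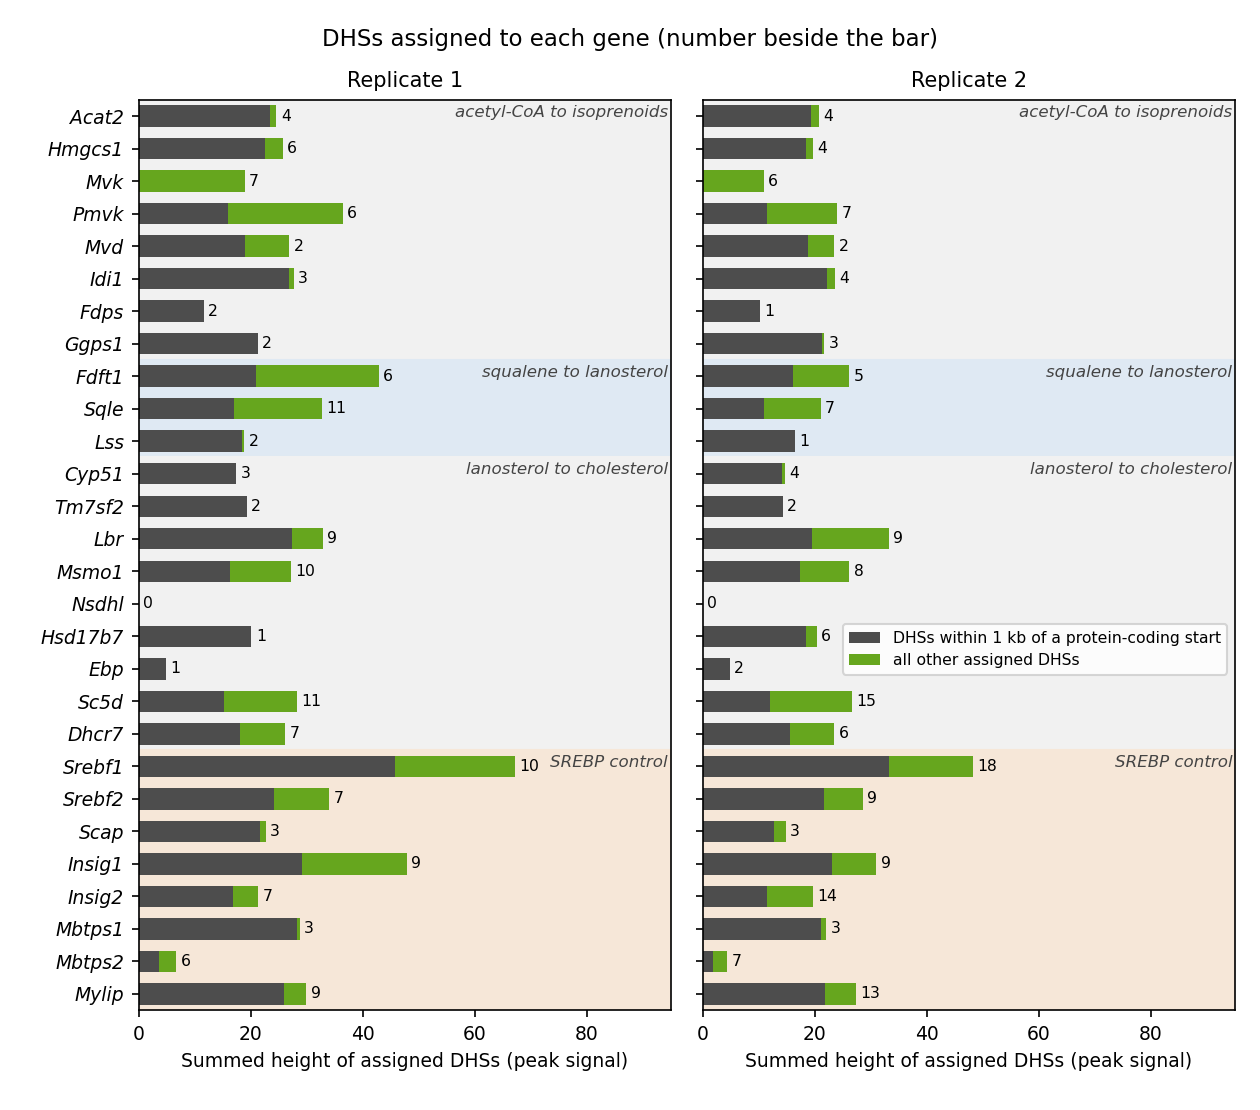
Summed height of the DHSs assigned to each gene (x axis, deposited peak signal), split into DHSs within 1 kb of a protein-coding start (dark) and all others (green), with the number of DHSs beside each bar and 1 panel per library. Srebf1 has the longest bar in both libraries, 67.1 and 48.2, and Mvk has green alone because its promoter DHS is assigned to Mmab.

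Some members had strong distal sites in both animals. Insig1, with summed heights of 47.9 and 31.0, had a DHS 22777 bp downstream of its 5′ end (28094061 to 28094220 of chromosome 5 in replicate 1) with 7.92 and 2.15, and another 33 kb upstream with 4.81 and 2.74. Fdft1, with 42.9 and 26.1 in sum, had intronic DHSs about 15 kb inside the gene, the strongest with 7.01 and 4.94. In replicate 1 alone this site was listed as a pair of overlapping DHSs, with 7.01 and 6.30, and the sum of 42.9 includes both. Pmvk, with 36.4 and 24.0, had most of its sum away from starts, 56.3% and 52.4%, including a DHS 30799 bp from its 5′ end with 5.79 and 3.54 and another 5740 bp upstream with 5.07 and 4.01. Mvd had a DHS 1188 bp upstream with 7.91 and 4.73. Mvk, beyond the promoter shared with Mmab, had a DHS 17 kb downstream of its 5′ end with 7.99 and 3.94. At Lbr, a DHS 17804 bp upstream was higher in replicate 2, with 1.98 in replicate 1 and 4.57 in replicate 2.

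The members' distal sites were about as often shared between the animals as those of other genes. Of 97 distal DHSs assigned to members in replicate 1, 63 overlapped a DHS of replicate 2, or 64.9%, and of 124 in replicate 2, 62 overlapped 1 of replicate 1, or 50%. The shares over all protein-coding genes were 59.0% and 52.7%. The median height of the distal sites was 0.992 and 0.777 for members, against 0.942 and 0.737 for all genes. At the starts, in contrast, the median height of assigned DHSs was 10.1 and 9.58 for members, against 2.60 and 1.95 for all genes.

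The strongest promoter DHS held at least 1 footprint in all 28 members in both libraries, against 92.4% of all genes open in both. The median number was 5 in replicate 1 and 3 in replicate 2, against 4 and 3 over all genes. The footprint lists differed in size, with 272597 and 184847 footprints of mean width 13.7 and 10.2 bp. CCAAT boxes of members that lay inside a DHS were covered over at least 50% of their bases in 16 of 29 cases in replicate 1, or 55.2%, and in 6 of 34 in replicate 2, or 17.6%, against 38.7% and 21.5% over all genes. The members thus lay above all genes in replicate 1 and below them in replicate 2. For GC boxes the shares were 57.5% and 43.2% in members, against 50.5% and 35.1% over all genes, higher in both libraries.

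Promoter heights were mostly greater in replicate 1, in members as in other genes. They were higher in replicate 1 for 26 of 28 members, all but Ggps1 and Msmo1, against 88.3% of all genes open in both. The log2 ratio of replicate 1 over replicate 2 had a median of 0.32 in members and 0.46 over all 14348 genes open in both, with an SD of 0.47 across those genes. Relative to that shift, the members ran from -0.65 at Ggps1 to 0.30 at Scap, with 22 below and 6 above the median of all genes. None of the 28 lay 1 or more from it on the log2 scale, against 4.26% of all genes. The order of the members was much alike in both animals, with a Spearman correlation of 0.868 over 28 genes whose heights come from the same 2 libraries. The strongest DHSs of 26 of 28 members overlapped between the animals, and those of Acat2 and Cyp51 did not. Neither this count nor the correlation was computed over all genes. Of all assigned DHSs at starts, 80.8% and 87.5% of those of members overlapped a DHS of the other library. The shares over all protein-coding genes were 80.9% and 81.1%.

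The strongest DHS lay nearer to a start of another gene for 3 of 28 members, Mvk, Nsdhl and Dhcr7, against 9.83% of all genes open in both, a share near the background. Such a DHS cannot be divided between the genes on either side.

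Other genes of sterol and fatty acid metabolism, taken from a list of 27, all had a promoter DHS in both libraries. Their median promoter height was 13.7 in replicate 1 and 10.6 in replicate 2, between those of the members and those of all genes. The 3 highest were Sec24c, a coat protein of the vesicles that leave the endoplasmic reticulum, with 28.1 and 17.8, Acly, which makes cytosolic acetyl-CoA from citrate, with 24.1 and 19.8, and Acss2, which makes it from acetate, with 20.7 and 15.6. The 3 lowest were Abcg1, a sterol efflux transporter, with 2.97 and 2.87, Elovl6, a fatty acid elongase, with 3.17 and 2.36, and Scd1, a fatty acid desaturase, with 2.92 and 2.33. Scd1 and Elovl6 had low promoters but many other sites, with summed heights of 36.9 and 30.2 for Scd1 and of 27.1 and 23.0 for Elovl6.

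By group, the 12 genes of fatty acid synthesis had median heights of 15.5 and 10.2, and the 6 genes of cholesterol handling had 14.05 and 11.9. Among these 6, Scarb1, the receptor by which adrenal cells take up cholesterol esters from lipoproteins, had a promoter height of 13.3 and 7.56 and 43 and 28 assigned DHSs, with a summed height of 106.6 and 64.0, above that of every member. The 4 genes of oxysterol sensing and efflux had medians of 10.5 and 7.01, and the 5 genes of SREBP escort and degradation had 10.6 and 9.30. Of the 27 genes, 26 were higher in replicate 1.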

How the data were processed

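DNase-seq libraries of adrenal gland tissue from 2 mice, 1 per mouse per the labels, were analysed from files deposited for each library in mm10, a C57BL/6J genome, per the labels. The peak heights are a deposited signal whose scale is not stated, and each was a whole multiple (to within 0.01) of 1 step, 0.00833 in replicate 1 and 0.00888 in replicate 2. The deposited FDR lists give q-values of at most 0.05 along the genome, and all footprints were listed at 1 FDR, 0.01. The aligner and the callers were not given in the sources used here. Of 2 peak lists per library the longer was used.

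Genes and 54236 protein-coding starts came from GENCODE M21. A promoter height is that of the strongest DHS touching 1 kb on either side of any start, and DHSs were assigned to the nearest start within 100 kb of their centre. Promoter sequences came from RefSeq, and all 33 windows of members were identical to the genome. Python 3.11.15, pandas 2.3.3, numpy 2.4.6, pysam 0.24.0 and samtools 1.23.1 were used, and the procedures were tested on simulated data. With a single group of 2 libraries no test was made. Members and lists were chosen with earlier results of these data known. All members are named, and of the related genes the 3 highest and 3 lowest by mean height; Scarb1 is named as a tissue marker. Of the tissue markers, 1 is not reported here. Alternatives were the shorter list, other windows, distance limits, scalings and each library alone.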

Additional observations from a re-analysis of the deposited data

How the results depend on the processing

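The count of members with a promoter DHS was 28 with the shorter peak list, 27 with a 250 bp window and 25 with the 5′ end of the gene alone. The median promoter height, 14.96 as the mean of both libraries, stayed between 14.5 and 16.2 with other lists, windows, starts or autosomal members alone. The median number of DHSs was 5.75 and moved to 3.5 with the shorter list, 3 with a 20 kb limit and 4 without DHSs at starts, since each of these drops sites. The median summed height of 23.6 moved to 3.602 without DHSs at starts. The median log2 ratio of 0.32 turned to -0.077 with heights divided by the library total and to -0.14 relative to all genes. Allowing 1 mismatch in the SRE raised the count from 1 to 11. Leaving out each replicate gave 28 and 28 open members, median heights of 13.03 to 16.9, 5.5 to 6 DHSs, summed heights of 21.4 to 25.9, and 28 and 28 members with footprints. Autosomal members alone, ratios relative to all genes, sums without DHSs at starts and SRE mismatches were chosen after seeing the data. No paired analysis was possible because there is a single group.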
